A study of Homo sapiens with 24 samples.

Results

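The transcripts described here encode splicing factors and heterogeneous nuclear ribonucleoproteins (hnRNPs). Genes were chosen by name alone: SR proteins named SRSF with a number, spliceosomal ribonucleoproteins starting with SNRP, names starting with HNRNP, SF3A, SF3B or U2AF, and PRPF proteins with a number. A mean normalized count of at least 10 was required. This gave 66 genes of the 15168 genes that passed this mean in at least 1 comparison, with 65 in RPE1* 21/3 and 66 in each of the other lines. They comprised 11 SR proteins, 11 snRNP proteins, 19 hnRNP genes, 9 SF3A and SF3B subunits, 13 PRPF proteins and 3 U2AF proteins. The names matched 68 rows in all. SRSF12 and SNRPN did not reach that mean wherever they had a row, and SF3B2 was not analysed here in RPE1* 21/3.

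Each aneuploid human cell line was compared with the parental line it came from by mRNA sequencing of 3 libraries per line, 24 libraries in all. HCT116 is a near-diploid colon carcinoma line and RPE1 a retinal pigment epithelium line immortalized with hTERT, the catalytic subunit of telomerase. HCT116 5/4 carries 4 copies of chromosome 5 and was compared with HCT116, and HCT116* 8/3 c7, a single clone, carries 3 copies of chromosome 8 and was compared with HCT116*. RPE1 5/3 12/3 carries 3 copies each of chromosome 5 and of chromosome 12, the latter gained spontaneously, and was compared with RPE1, while RPE1* 21/3 carries 3 copies of chromosome 21 and was compared with RPE1*. The asterisk marks lines, parental ones included, that stably express histone H2B fused to GFP. Apart from HCT116 5/4, which the study received from another laboratory, the aneuploid lines were made by transfer of a chromosome in microcells. Each karyotype is represented by 1 line, so that a karyotype and the history of its line cannot be told apart.

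Splicing removes introns from precursor mRNA. U2AF and the SF3 subunits of the U2 snRNP recognise the 3′ end of the intron, Sm proteins form the ring that holds the small nuclear RNAs, and PRPF proteins build and run the later spliceosome. SR proteins mostly promote the inclusion of exons, whereas hnRNP proteins often repress it and also package, transport and stabilise RNA. Many of these proteins regulate their own transcripts by splicing in exons that lead to decay.

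Values are the log2 fold changes of an aneuploid line over its parental line in the authors' deposited tables, given ± the standard error (SE) of the authors' fit over 3 libraries against 3. Values of single libraries are not analysed here, so that spread is known only through these errors. A gene was called when its adjusted p-value, from the authors' DESeq2 comparison with Benjamini-Hochberg adjustment over all genes of a table, was under 0.05 and its absolute log2 fold change above 0.6. A gene present in 3 copies in place of 2 would sit at 0.58 if its transcript followed its copies, just under that threshold, and a gene in 4 copies at 1.00. Median SEs over all genes were between 0.14 and 0.25. As a check of the lines, 6 of 8 epithelial colon markers had a mean of at least 10 in both HCT116 comparisons against 2 in the RPE1 comparisons, and 5 of 5 RPE1 markers did so in the RPE1 comparisons against 4 and 3 in the HCT116 comparisons. The summed means of the RPE1 markers were 230604 and 147846 in the RPE1 comparisons and 1220 and 970 in the HCT116 comparisons. Those of the colon markers lay closer, at 115944 and 108127 in the HCT116 comparisons and 32113.5 and 30149 in the RPE1 comparisons. KRT8 and KRT18 made up nearly all of the latter. Each sum was normalized within its own table.

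Reads of close copies cannot always be assigned to 1 gene, and this bears on several rows of the results. HNRNPA1 lies on chromosome 12 (54673977 to 54680872, hg19) and HNRNPA1L2 is an intronless copy of it on chromosome 13 (53216566 to 53217908). Over the coding part of HNRNPA1L2, 98.4% of bases were identical to HNRNPA1, and the longest run without a difference was 174 bases, longer than the 100-base reads. Of the 1244 stretches of 100 bases in the HNRNPA1L2 transcript, 285 (22.9%) occurred unchanged in a transcript of HNRNPA1. Anywhere else in the genome, 30.8% of HNRNPA1L2 stretches were found at 17 places and 33.2% of HNRNPA1 stretches at 19 places. The row HNRNPA1L2 had a higher mean normalized count than HNRNPA1 itself in every comparison (3006 against 1925 in HCT116 5/4 and 3078 against 2081 in RPE1 5/3 12/3), and both rows are reported as uncertain. The row HNRNPU-AS1 carries the name of an antisense transcript of HNRNPU. The counting options given in the sources used here name no strand, so its reads cannot be told apart from those of HNRNPU. Across the rest, the share of 100-base stretches of the reference transcript found elsewhere in the genome was 26.4% for SNRPA1, 18.8% for HNRNPA3, 17.98% for SNRPG, 15.8% for HNRNPC and 8.42% for SNRPE, and at most 8.03% for every other gene with a placed transcript. For SRSF8, an intronless relative of SRSF2, it was 0.17%, and no stretch was shared with a transcript of SRSF2.

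Few of the splicing genes passed the call, and none was called lower in any line. In HCT116 5/4, 2 of 66 were called, both higher, where 20.6% of all genes were called and 10.8% were called higher. In RPE1 5/3 12/3, 4 of 66 were called, all higher, against 16.6% of all genes called and 8.13% called higher. No member of the list was called in HCT116* 8/3 c7, where 1.80% of all genes were, or in RPE1* 21/3, where 3.31% were. At an unadjusted p under 0.05 in the authors' DESeq2 comparison, 1 of 66 stood out in HCT116* 8/3 c7 against 8.81% of all genes, and 2 of 65 in RPE1* 21/3 against 9.59%. Over the lines 5 genes were called, and 60 of the 65 genes measured in all 4 comparisons had an absolute log2 fold change under 0.6 in each.

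The changes of splicing genes were small beside those of other genes. Their median absolute log2 fold change was 0.16 in HCT116 5/4 against 0.32 over all genes, 0.07 against 0.09 in HCT116* 8/3 c7, 0.11 against 0.24 in RPE1 5/3 12/3 and 0.10 against 0.15 in RPE1* 21/3. Splicing genes are highly expressed, and their SEs were lower than those of other genes (a median of 0.21 against 0.24 in HCT116 5/4). Where only well-expressed genes were taken, with means from 1000 upwards, the medians were 0.26, 0.08, 0.20 and 0.12, still above those of the splicing genes in all 4 lines. The 95% interval lay wholly between −0.6 and 0.6 for 36 of 66 splicing genes in HCT116 5/4, for 66 of 66 in HCT116* 8/3 c7, for 48 of 66 in RPE1 5/3 12/3 and for 41 of 65 in RPE1* 21/3. These shares compare with 21.9%, 91.5%, 38.9% and 39.99% of all genes. The intervals were those of the authors' fold changes, shrunken towards 0 by a prior, and were not counted with the prior undone. In HCT116* 8/3 c7 no gene had an SE above 0.18, so the interval was narrow for nearly every gene. The 66 of 66 in that line therefore does not exclude a change beyond the threshold. The shares depend on the SEs of each line and are not compared between lines. For the genes that were neither called nor within these bounds, a change beyond the threshold was neither shown nor excluded.

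**Figure D1:**
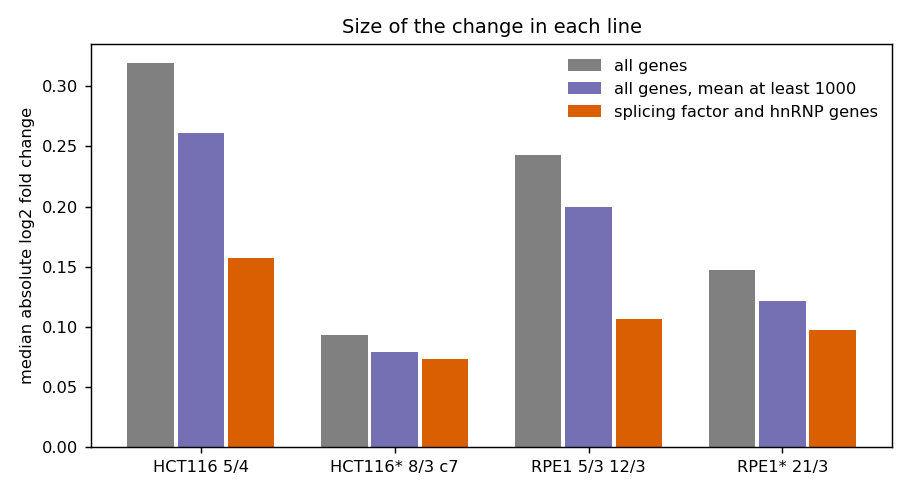
Bars give the median absolute log2 fold change of each aneuploid line over its parental line (axis from 0) for all genes tested, for the well-expressed genes with means from 1000 upwards and for the splicing factor and hnRNP genes. The bars of the splicing genes are the lowest in all 4 lines, at 0.16, 0.07, 0.11 and 0.10.

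The direction of the small changes differed between lines. In HCT116 5/4, 51 of 66 splicing genes were below 0, with a median of −0.12 against 0.00 over all genes, of which 50.03% were below 0. RPE1* 21/3 had 48 of 65 below 0, against 49.3% of all genes, and a median of −0.07. In HCT116* 8/3 c7 only 17 of 66 were below 0 (median 0.06), against 48.2% of all genes. In RPE1 5/3 12/3 20 of 66 were (median 0.09), against 49.7%. The shifts are smaller than the error of a single gene, and of 65 genes only SRSF3 and SRSF11 were below 0 in all 4 lines and only SF3A1, SF3B4 and HNRNPU-AS1 above 0 in all 4. Of the same 65, 34 were below 0 in HCT116 5/4 and above 0 in RPE1 5/3 12/3. Well-expressed genes, with means from 1000 upwards, leaned the same way in 2 lines, with 55.8% below 0 in RPE1* 21/3 and 44.9% in HCT116* 8/3 c7. The shares were 49.8% in HCT116 5/4 and 48.5% in RPE1 5/3 12/3.

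**Figure D2:**
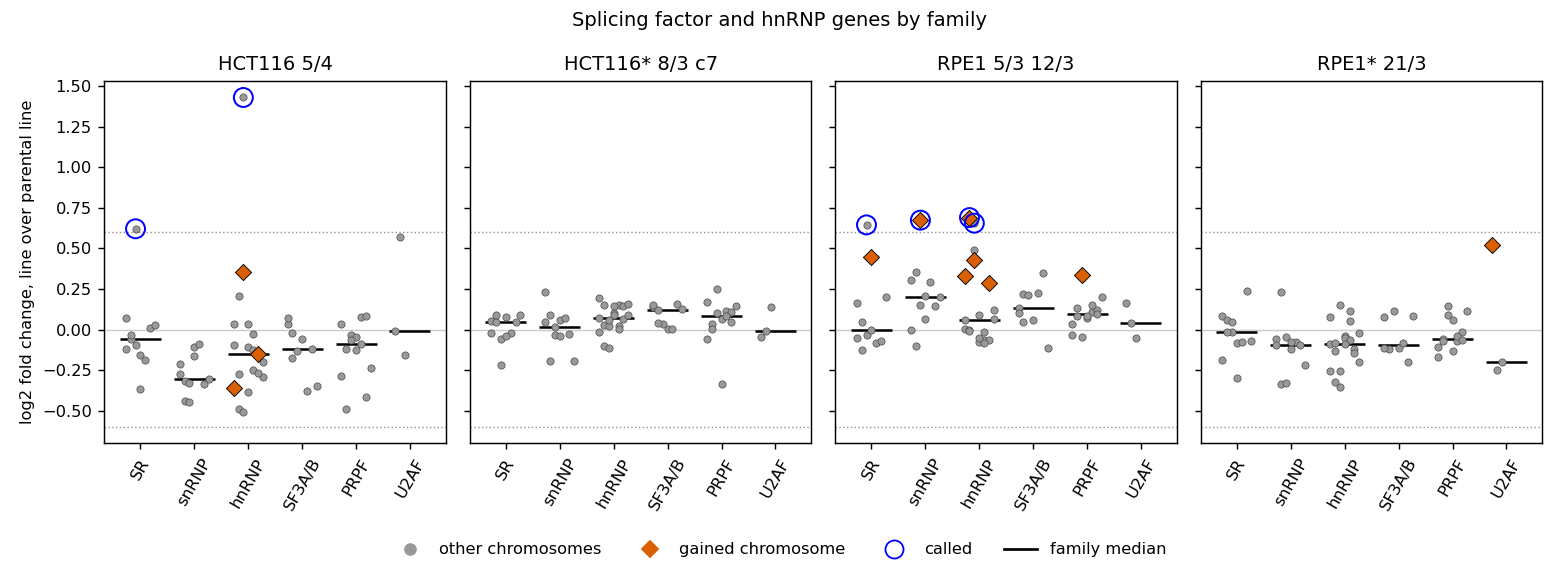
Each point is 1 gene, placed by its log2 fold change over the parental line (vertical axis) and by its family (SR, snRNP, hnRNP, SF3A and SF3B, PRPF and U2AF proteins), with 1 panel per aneuploid line. Diamonds mark genes on a gained chromosome, blue rings the 2 called genes of HCT116 5/4 and the 4 of RPE1 5/3 12/3, black bars family medians and dotted lines the threshold of 0.6. The snRNP proteins of HCT116 5/4 lie wholly below 0.

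SR proteins, which bind exonic enhancers and recruit the spliceosome, stayed near 0 as a family, with medians of −0.06 in HCT116 5/4, 0.05 in HCT116* 8/3 c7, 0.00 in RPE1 5/3 12/3 and −0.02 in RPE1* 21/3. The exception was SRSF8, an intronless gene on chromosome 11 (94800083 to 94804388), which was called higher in the 2 lines that gained chromosome 5. Its log2 fold change was 0.62 ± 0.19 in HCT116 5/4 (DESeq2, adjusted p = 0.0070) and 0.65 ± 0.17 in RPE1 5/3 12/3 (DESeq2, adjusted p = 0.00103). It was −0.22 ± 0.12 in HCT116* 8/3 c7 and 0.05 ± 0.21 in RPE1* 21/3. Chromosome 11 is not among the gained chromosomes of the labels. Genes of its long arm had a median of 0.40 in RPE1 5/3 12/3 and 0.02 in HCT116 5/4, and the 27 genes within 5 Mb of SRSF8 had a median of 0.46 in RPE1 5/3 12/3 while 28 such genes had 0.13 in HCT116 5/4. The part of that region in the rise of SRSF8 was not tested.

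SRSF9 on chromosome 12 had 0.45 ± 0.21 in RPE1 5/3 12/3 (DESeq2, adjusted p = 0.134), the line with 3 copies, and was the lowest SR protein of HCT116 5/4 at −0.37 ± 0.23 and of RPE1* 21/3 at −0.30 ± 0.24. SRSF1 and SRSF2, the founding members of the family, lie on the long arm of chromosome 17, where genes from 50 Mb onwards had a median of −0.45 in HCT116 5/4. In that line SRSF1 was at 0.07 ± 0.19 amid 54 neighbours within 5 Mb with a median of −0.36. SRSF2 was at −0.16 ± 0.20 amid 121 neighbours with a median of −0.49. Neither was called. The other SR proteins at the ends of the family were SRSF7 in HCT116* 8/3 c7 (0.09 ± 0.12), SRSF10 in RPE1 5/3 12/3 (−0.13 ± 0.17) and SRSF4 in RPE1* 21/3 (0.24 ± 0.19).

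All 11 snRNP proteins were below 0 in HCT116 5/4, between −0.44 and −0.09 with a median of −0.31, and none of them passed the test. The lowest was SNRPF at −0.44 ± 0.23, followed by SNRPE at −0.44 ± 0.23 and SNRPD1 at −0.34 ± 0.22. SNRPC, a component of the U1 snRNP, was nearest to 0 at −0.09 ± 0.20. In RPE1* 21/3 10 of 11 were below 0 with a median of −0.10, the exception being the U2 protein SNRPA1 at 0.23 ± 0.26. In RPE1 5/3 12/3 9 of 11 were above 0 with a median of 0.20, and in HCT116* 8/3 c7 6 of 11 with a median of 0.02, from SNRPD2 at −0.20 ± 0.11 to the U1 protein SNRPA at 0.23 ± 0.14.

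The Sm ring is built from 1 copy each of its proteins, and only SNRPF among the 7 genes encoding them (SNRPB, SNRPD1, SNRPD2, SNRPD3, SNRPE, SNRPF and SNRPG) lies on a gained chromosome. SNRPF (chromosome 12, 96252730 to 96297606) was called in RPE1 5/3 12/3 at 0.67 ± 0.22 (DESeq2, adjusted p = 0.0126), amid 32 neighbours with a median of 0.47. Of the other ring proteins in that line SNRPE was highest at 0.36 ± 0.18 and SNRPD3 lowest at 0.00 ± 0.18. None of them was called. In HCT116 5/4 the ring proteins ranged from −0.44 to −0.17 with a median of −0.33, and in RPE1* 21/3 from −0.33 to −0.05. SNRPF was at −0.03 ± 0.13 in HCT116* 8/3 c7 and −0.33 ± 0.29 in RPE1* 21/3.

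Among hnRNP genes the called rows were HNRNPA1, HNRNPA1L2 and HNRNPU-AS1, all of them rows with reads that may belong to another gene. HNRNPA1, an abundant repressor of exon inclusion that also shuttles mRNA out of the nucleus, was at 0.69 ± 0.18 in RPE1 5/3 12/3 with 3 copies of chromosome 12 (DESeq2, adjusted p = 9.92e-04). It was at −0.49 ± 0.21 in HCT116 5/4 (adjusted p = 0.0906 by DESeq2), −0.10 ± 0.12 in HCT116* 8/3 c7 and −0.32 ± 0.16 in RPE1* 21/3, where its unadjusted p of 0.0469 by DESeq2 made it 1 of the 2 genes that stood out. HNRNPA1L2, on a chromosome that no line gained, had like values, with 0.66 ± 0.20 in RPE1 5/3 12/3 (DESeq2, adjusted p = 0.00931), −0.51 ± 0.24 in HCT116 5/4, −0.11 ± 0.13 in HCT116* 8/3 c7 and −0.36 ± 0.20 in RPE1* 21/3. The 33 genes within 5 Mb of HNRNPA1L2 had a median of 0.09 in RPE1 5/3 12/3. How far the 2 rows count the same RNA was not tested.

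HNRNPU-AS1 had the highest value of all splicing rows, 1.43 ± 0.36 in HCT116 5/4 (DESeq2, adjusted p = 7.36e-04), from a mean of 125 normalized counts. HNRNPU, a nuclear scaffold protein and the gene on the opposite strand, had a mean of 19981 and was at 0.21 ± 0.20 in that line. HNRNPU-AS1 was at 0.06 ± 0.18 in HCT116* 8/3 c7, 0.49 ± 0.37 in RPE1 5/3 12/3 and 0.15 ± 0.36 in RPE1* 21/3, with means of 67, 81 and 59.

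The other hnRNP genes moved little. The family medians were −0.15 in HCT116 5/4, 0.07 in HCT116* 8/3 c7, 0.06 in RPE1 5/3 12/3 and −0.09 in RPE1* 21/3. HNRNPD, an AU-rich element binding protein that promotes mRNA decay, was highest in HCT116* 8/3 c7 at 0.19 ± 0.15. HNRNPUL2 was lowest in RPE1 5/3 12/3 at −0.08 ± 0.16, amid 189 neighbours on chromosome 11 with a median of 0.34. In RPE1* 21/3 it was at 0.11 ± 0.18, the highest hnRNP gene with a mean of at least 100. HNRNPA2B1, the relative of HNRNPA1 with the highest normalized count per kilobase of transcript of all these genes in every line, stayed within −0.11 and 0.10 in the 4 lines.

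On chromosome 5 lie 3 hnRNP genes, HNRNPA0, HNRNPAB and HNRNPH1, which were therefore gained in both HCT116 5/4, with 4 copies, and RPE1 5/3 12/3, with 3. HNRNPA0 (137081340 to 137090052), a binder of AU-rich elements, was at −0.36 ± 0.20 in HCT116 5/4 and 0.33 ± 0.17 in RPE1 5/3 12/3. HNRNPAB (177631534 to 177638164), a relative of HNRNPD, was at −0.15 ± 0.20 and 0.29 ± 0.17. HNRNPH1 (179041179 to 179061785), which binds G-rich tracts, was at 0.35 ± 0.20 and 0.43 ± 0.16, and its adjusted p of 0.039 in RPE1 5/3 12/3 (DESeq2) passed without the fold threshold, making 5 of 66 splicing genes that did so against 20.3% of all genes there.

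In HCT116 5/4 the 3 chromosome 5 genes sat below the median of that chromosome. Its 617 genes had a median of 0.79, 20.3% of them were below 0 and 55.6% were called higher. Within 5 Mb the median was 0.84 around HNRNPA0, 0.87 around HNRNPAB and 0.86 around HNRNPH1. The upper end of the 95% interval was 0.04 for HNRNPA0, 0.24 for HNRNPAB and 0.74 for HNRNPH1, in each case under the 1.00 of 4 copies. An interval that held 1.00 was found for 43.8% of chromosome 5 genes. In RPE1 5/3 12/3 all 7 splicing genes on gained chromosomes were above 0, from 0.29 to 0.69 with a median of 0.43, and the interval of each of the 7 held 0.58. The chromosome medians there were 0.53 for chromosome 5 and 0.43 for chromosome 12, and 68.5% and 73.2% of their genes had an interval that held 0.58.

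**Figure D3:**
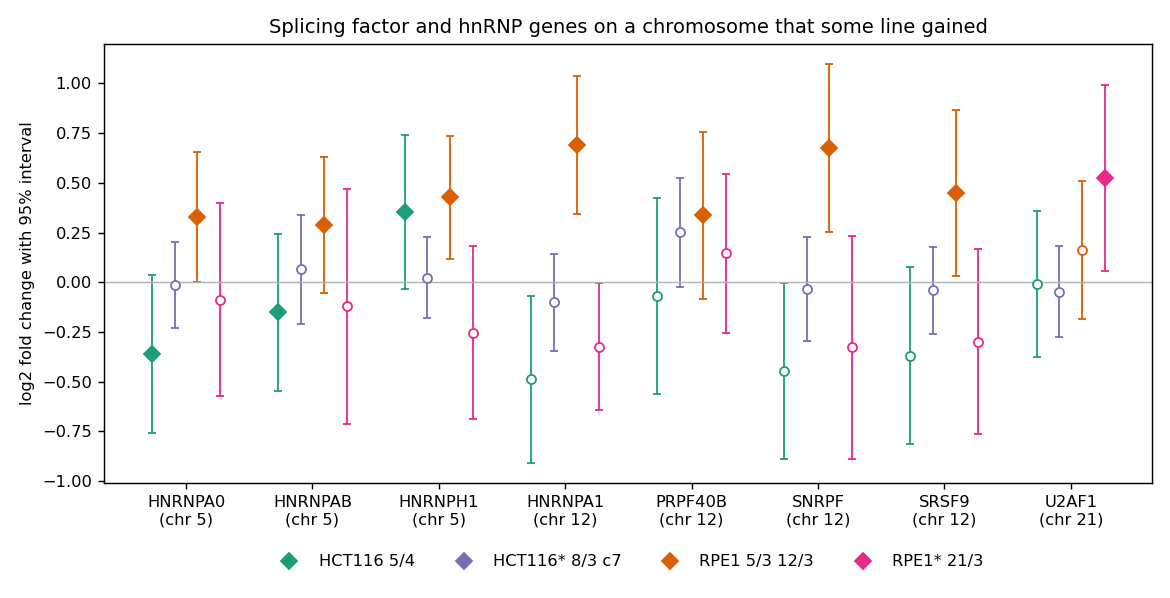
Points give the log2 fold change over the parental line and bars the 95% interval (1.96 SE each side) of the 8 splicing genes that lie on chromosome 5, 12 or 21, with the lines side by side in colour. Filled diamonds mark the lines in which that chromosome was gained and open circles those in which it was not. HNRNPA0 and HNRNPAB are below 0 in HCT116 5/4 and above 0 in RPE1 5/3 12/3.

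The sequences before the starts of HNRNPA0, HNRNPAB, PRPF40B, SNRPF and SRSF9 are shown because these genes lie on chromosome 5 or 12 and had opposite signs in the 2 lines that gained chromosome 5, as did HNRNPA1. Such signs do not mark out these genes, since 34 of 65 splicing genes were below 0 in HCT116 5/4 and above 0 in RPE1 5/3 12/3. PRPF40B was at only −0.07 in HCT116 5/4. In the test between lines given below, HNRNPAB and PRPF40B did not differ. Only RPE1 5/3 12/3 gained chromosome 12. They are the 250 bases before the start in the RefSeq promoter table (GRCh38.p14), which held 58 of the splicing genes. Capitals mark a CCAAT box (CCAAT, or ATTGG on the other strand) or a GC box (GGGCGG or CCGCCC). HNRNPA0 lies at chr5:137754364-137754613 on the minus strand, HNRNPAB at chr5:178204283-178204532 on the plus strand, PRPF40B at chr12:49623311-49623560 on the plus strand, SNRPF at chr12:95858702-95858951 on the plus strand and SRSF9 at chr12:120469749-120469998 on the minus strand:
HNRNPA0: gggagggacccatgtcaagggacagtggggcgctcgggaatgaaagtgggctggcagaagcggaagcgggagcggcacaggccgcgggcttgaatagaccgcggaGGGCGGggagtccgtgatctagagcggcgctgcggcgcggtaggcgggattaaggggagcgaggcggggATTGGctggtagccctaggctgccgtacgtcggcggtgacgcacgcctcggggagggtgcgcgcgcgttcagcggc
HNRNPAB: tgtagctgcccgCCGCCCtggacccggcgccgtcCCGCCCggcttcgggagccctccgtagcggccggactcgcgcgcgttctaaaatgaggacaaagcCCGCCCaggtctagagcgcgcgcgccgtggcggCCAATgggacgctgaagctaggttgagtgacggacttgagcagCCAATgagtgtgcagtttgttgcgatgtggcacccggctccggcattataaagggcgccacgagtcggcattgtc
PRPF40B: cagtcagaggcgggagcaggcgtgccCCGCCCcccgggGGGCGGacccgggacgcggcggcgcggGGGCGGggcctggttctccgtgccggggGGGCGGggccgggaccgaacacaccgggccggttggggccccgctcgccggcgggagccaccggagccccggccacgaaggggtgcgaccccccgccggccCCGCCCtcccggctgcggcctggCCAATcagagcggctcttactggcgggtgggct
SNRPF: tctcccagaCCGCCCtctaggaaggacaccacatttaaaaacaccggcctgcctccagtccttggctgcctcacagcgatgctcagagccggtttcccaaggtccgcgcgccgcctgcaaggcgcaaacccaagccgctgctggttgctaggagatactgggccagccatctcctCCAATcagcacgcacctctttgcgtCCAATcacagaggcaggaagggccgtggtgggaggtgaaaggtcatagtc
SRSF9: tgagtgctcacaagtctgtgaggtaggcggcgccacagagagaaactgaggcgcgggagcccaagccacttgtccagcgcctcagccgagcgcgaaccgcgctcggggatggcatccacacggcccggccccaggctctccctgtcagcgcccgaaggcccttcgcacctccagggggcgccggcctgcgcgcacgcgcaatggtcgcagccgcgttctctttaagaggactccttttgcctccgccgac
The windows of HNRNPA0, HNRNPAB, PRPF40B and SNRPF held both motifs, and that of SRSF9 held neither. The CCAAT box occurred in 32.01% of the 35116 windows of this length in the table and in 30 of the 80 windows of splicing genes (37.5%), and the GC box in 42.6% and 48.8%. No CCAAT box overlapped a GC box in these 5 windows, and a match is a description only.

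The SF3A and SF3B subunits of the U2 snRNP, which bind the branch point, had medians of −0.12 in HCT116 5/4, 0.12 in HCT116* 8/3 c7, 0.13 in RPE1 5/3 12/3 and −0.10 in RPE1* 21/3, and none was called. In HCT116* 8/3 c7 all 9 were above 0, at most 0.15 ± 0.13 for SF3B2. SF3B2, on the long arm of chromosome 11 that had a median of 0.40, was also the highest in RPE1 5/3 12/3 at 0.35 ± 0.19. SF3B14, the branch-site contacting protein also named SF3B6, was lowest in HCT116 5/4 at −0.38 ± 0.25 and SF3B4 highest at 0.07 ± 0.21. SF3B3 was the lowest in RPE1 5/3 12/3 at −0.11 ± 0.17 and in RPE1* 21/3 at −0.20 ± 0.21, where SF3A3 was highest at 0.11 ± 0.19. SF3B1, the largest subunit, stayed within −0.11 and 0.06 in the 4 lines.

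PRPF proteins had medians of −0.09, 0.09, 0.10 and −0.06 in the same order. PRPF19, the ubiquitin ligase of the complex that bears its name, was the lowest in HCT116 5/4 at −0.49 ± 0.20 (DESeq2, adjusted p = 0.0691) and was at 0.13 ± 0.21 in RPE1 5/3 12/3 amid 146 neighbours with a median of 0.28. PRPF4B, a kinase of the tri-snRNP, was the 1 gene of HCT116* 8/3 c7 with an unadjusted p under 0.05, at −0.34 ± 0.13 (DESeq2, unadjusted p = 0.00881, adjusted p = 0.198). PRPF40B, on chromosome 12, was at 0.34 ± 0.22 in RPE1 5/3 12/3 and at 0.25 ± 0.14 in HCT116* 8/3 c7 and 0.15 ± 0.20 in RPE1* 21/3, where it had the normal number of copies and was still the highest of the family. PRPF8, the scaffold at the heart of the spliceosome, lay within −0.07 and 0.10 in the 4 lines. PRPF3 (−0.05 ± 0.17 in RPE1 5/3 12/3) and PRPF4 (−0.17 ± 0.26 in RPE1* 21/3) were the lowest of the family in their lines.

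U2AF1 and U2AF2 are the small and large subunit of the factor that reads the 3′ splice site, and U2AF1 (chromosome 21, 44513066 to 44527680) was the only splicing gene on chromosome 21. It was at 0.52 ± 0.24 in RPE1* 21/3, with a 95% interval from 0.06 to 0.99, which held 0.58. By DESeq2 its unadjusted p was 0.0277 and its adjusted p 0.369, so that it was not called. Chromosome 21 had a median of 0.56 over 126 genes, and 25.4% of them were called higher. U2AF2, on chromosome 19, was at −0.20 ± 0.27 in the same line. U2AF1 was at −0.01 ± 0.19 in HCT116 5/4, −0.05 ± 0.12 in HCT116* 8/3 c7 and 0.16 ± 0.18 in RPE1 5/3 12/3. U2AF2 was at −0.16 ± 0.21, 0.14 ± 0.14 and −0.05 ± 0.20 in these lines. U2AF1L4, a low-expressed relative with a mean of 101 in HCT116 5/4, was at 0.57 ± 0.29 there (DESeq2, adjusted p = 0.169).

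No splicing gene of the list lies on chromosome 8, and HCT116* 8/3 c7 therefore had no member with an extra copy. Its changes ran from −0.34 for PRPF4B to 0.25 for PRPF40B, and the median of chromosome 8 itself was 0.22 over 462 genes. Over all genes the largest SE was 0.18 in that comparison and 0.81 in HCT116 5/4. Fold changes shrunken by a prior have such a ceiling, and the values were also computed with the prior undone. The median of 0.22 for chromosome 8 is that of the authors' values, with the prior in place.

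To ask whether a gene changed differently in 2 lines, the difference of its log2 fold changes was tested against the SEs of both (two-sided z test, Benjamini-Hochberg adjustment over all genes of the pair). The comparisons share no library. Between HCT116 5/4 and RPE1 5/3 12/3, 6 of 66 splicing genes differed, against 18.5% of all genes. HNRNPA1 differed by −1.18 ± 0.28 (adjusted p = 3.00e-04), HNRNPA1L2 by −1.17 ± 0.31 and SNRPF by −1.12 ± 0.31 (adjusted p = 0.00339). SRSF9 differed by −0.82 ± 0.31 (adjusted p = 0.0468). These 4 were lower in HCT116 5/4, and of them HNRNPA1, SNRPF and SRSF9 lie on chromosome 12, which only RPE1 5/3 12/3 had gained.

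The remaining 2 do not lie on chromosome 12. HNRNPA0, on chromosome 5 and thus gained in both, differed by −0.69 ± 0.26 (adjusted p = 0.0469, 95% interval −1.21 to −0.18). SNRPE, on chromosome 1, differed by −0.80 ± 0.29 (adjusted p = 0.0368). HNRNPAB differed by −0.44 ± 0.27 (95% interval −0.96 to 0.08) and HNRNPH1 by −0.07 ± 0.25 (95% interval −0.57 to 0.42), and neither passed the test. SRSF8, called in both lines, differed by −0.02 ± 0.25 with an interval from −0.52 to 0.47.

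**Figure D4:**
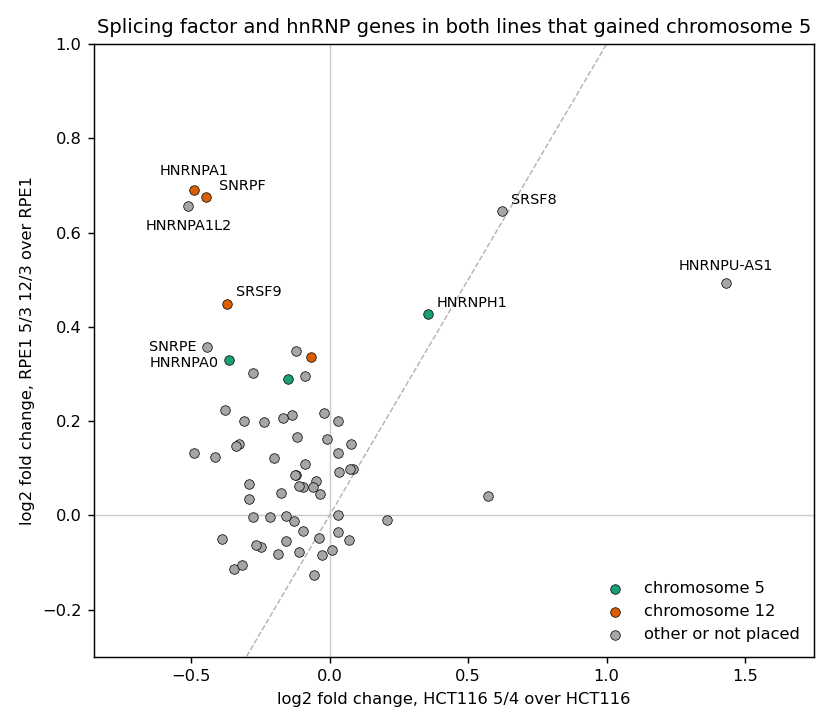
Each point is 1 of 66 splicing genes, with its log2 fold change in HCT116 5/4 over HCT116 on the horizontal axis and in RPE1 5/3 12/3 over RPE1 on the vertical axis; the dashed line marks equal values. The 6 genes that differed between the lines lie at the upper left, while SRSF8 and HNRNPH1 lie close to the dashed line and HNRNPU-AS1 lies far to its right.

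Between HCT116* 8/3 c7 and RPE1 5/3 12/3, 4 of 66 differed against 14.9% of all genes. SRSF8 differed by −0.87 ± 0.21 (adjusted p = 4.46e-04), HNRNPA1 by −0.79 ± 0.22, HNRNPA1L2 by −0.77 ± 0.24 and SNRPF by −0.71 ± 0.25 (adjusted p = 0.0390). With the prior undone 3 differed, and SNRPF was no longer among them. The same test separated HCT116 5/4 from HCT116* 8/3 c7 in 2 of 66 against 18.9%, with SRSF8 at 0.84 ± 0.22 (adjusted p = 0.00180) and HNRNPU-AS1 at 1.37 ± 0.40. RPE1 5/3 12/3 differed from RPE1* 21/3 in 2 of 65 against 9.32%, HNRNPA1 by 1.01 ± 0.24 (adjusted p = 6.69e-04) and HNRNPA1L2 by 1.01 ± 0.29. No splicing gene differed by the z test between HCT116 5/4 and RPE1* 21/3 (10.5% of all genes) or between HCT116* 8/3 c7 and RPE1* 21/3 (2.57%). At an unadjusted p under 0.05 by the z test the first pair gave 4 of 65 (HNRNPU-AS1, SRSF8, HNRNPH1 and U2AF1L4) against 19.6% of all genes, and the second gave U2AF1 alone against 8.51%.

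Other genes of the pathway were taken from lists that hold 131 names. Of 122 found in HCT116 5/4, 3 were called higher and 7 lower, against 10.8% and 9.83% of all genes. Of 119 found in RPE1 5/3 12/3, 7 were called higher (5.88%, against 8.13% of all genes) and 0 lower. Among all 13278 genes of that comparison, 1124 were called lower. No gene of 122 was called in HCT116* 8/3 c7 by DESeq2, against 1.80% of all genes. At an unadjusted p under 0.05 by DESeq2 there were 7, against 8.81% of all genes. In RPE1* 21/3, 1 gene of 120 was called higher and 1 lower, where 3.31% of all genes were called. The RNA-binding protein KHDRBS3 was higher at 0.91 ± 0.28, and MBNL3 lower at −1.78 ± 0.50 from a mean of 10.8. MBNL3 was also called lower in HCT116 5/4, at −1.17 ± 0.27 from a mean of 424. KHDRBS3 was also called higher in RPE1 5/3 12/3, at 0.64 ± 0.18. The list of Sm assembly factors, which load Sm proteins onto small nuclear RNA, had 3 of 11 lower in HCT116 5/4 and a median of −0.30: the chaperone CLNS1A at −0.75 ± 0.19, GEMIN6 at −0.66 ± 0.25 and GEMIN2 at −0.61 ± 0.24. In RPE1 5/3 12/3 CLNS1A was called higher at 0.74 ± 0.17 and the list's median was 0.05. CLNS1A lies on chromosome 11, whose long arm had a median of 0.40 in RPE1 5/3 12/3 and 0.02 in HCT116 5/4. The part of that region in these calls was not tested.

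LSM proteins, the relatives of Sm proteins in U6 snRNP and in mRNA decay, had a median of −0.34 in HCT116 5/4 with LSM7 called lower at −0.73 ± 0.24. Of the catalytic step factors, SLU7 on chromosome 5 was called higher in both lines that gained it, at 1.38 ± 0.21 in HCT116 5/4 and 0.71 ± 0.19 in RPE1 5/3 12/3. CLK4, a kinase of SR proteins also on chromosome 5, was called at 0.76 ± 0.28 and 0.92 ± 0.26. They were named because they were called, which none of the 3 hnRNP genes of that chromosome was, so the 2 sets are not ranked. RBM22 and CWC27, also on chromosome 5, were called in RPE1 5/3 12/3, at 0.66 ± 0.18 and 0.60 ± 0.19, and not in HCT116 5/4. EIF4A3, the helicase of the exon junction complex on chromosome 17, was called lower in HCT116 5/4 at −0.84 ± 0.19. Genes of chromosome 17 from 50 Mb onwards had a median of −0.45 in that line, with 85 of 258 called lower. The part of that region in the call was not tested. ESRP1, an epithelial splicing regulator, was the lowest of all listed genes in HCT116 5/4 at −1.53 ± 0.22. The third gene called higher there, beside SLU7 and CLK4, was AQR, a helicase of the spliceosome on chromosome 15, at 0.62 ± 0.24. HNRPDL, an hnRNP gene listed under an older symbol that the name rule did not take, was at 0.48 ± 0.21 in HCT116 5/4 and was not called in any line.

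In level, the splicing genes kept much the same order in all 4 comparisons. Per kilobase of reference transcript the mean normalized count over both groups was highest for HNRNPA2B1, at 8178 in HCT116 5/4, 8680 in HCT116* 8/3 c7, 6248 in RPE1 5/3 12/3 and 4512 in RPE1* 21/3. SNRPD2, HNRNPK and HNRNPC were among the next 4 in each. PRPF40B was the lowest gene with a transcript length in every comparison, at 75.7, 95.2, 89.5 and 81.6, below U2AF1L4. These levels were normalized within each table and are not compared between tables.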

How the data were processed

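The mRNA of 8 cell lines was sequenced by the authors in 100-base single reads with 3 libraries per line, trimmed with cutadapt, mapped to hg19 with TopHat2 2.0.10 keeping 1 location per read, counted on RefSeq exons with featureCounts 1.4.3 and compared with DESeq2, whose version is not given in the sources used here. The deposited tables hold per gene the authors' mean signal (size-factor normalized counts averaged over the 6 libraries), log2 fold change, its SE, a score (the Wald statistic) and the p-value with its adjusted value. They hold the authors' comparisons, and these were used since the tables have no column of a single library. A count model, planned for the case of counts, was not run. The ratio of fold change and SE matched each deposited statistic within 3.66e-07. The tables do not give sequencing depth, which is unknown here.

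Members and gene lists were chosen with earlier results of these data known. Genes were named if called in at least 1 line, on a gained chromosome, on chromosome 17 from 50 Mb or on 11q, at either end of a family at a mean of at least 100, or different between lines, with pathway genes given as counts and up to 3 names at each end. HNRNPA2B1, HNRNPH3, HNRNPK, HNRNPC, HNRNPU, SF3A1, SF3B1, SNRPD1, SRSF3 and SRSF11 were named after their values were seen. The replicates are not stated to be separate cultures, so p-values may measure technical spread only. Genes were placed by symbol in GENCODE v44lift37 (95.6% to 95.8% of genes). Neighbour medians needed 15 genes within 5 Mb. Differences between lines and the removal of the prior were tested on simulated data. Alternatives were other filters, thresholds, centring and the prior undone. Scripts ran under Biopython 1.88, scipy 1.17.1, pandas 2.3.3, numpy 2.4.6 and matplotlib 3.10.9 in Python 3.11.15.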

Additional observations from a re-analysis of the deposited data

Results flagged for a closer look

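The log2 fold changes of 14 pairs of a gene and 2 lines differed between the lines by the z test with adjustment over all genes. HNRNPA1 (−1.18), HNRNPA1L2 (−1.17), SNRPF (−1.12), SRSF9 (−0.82), SNRPE (−0.80) and HNRNPA0 (−0.69) were lower in HCT116 5/4 than in RPE1 5/3 12/3. SRSF8 (−0.87), HNRNPA1 (−0.79), HNRNPA1L2 (−0.77) and SNRPF (−0.71) were lower in HCT116* 8/3 c7 than in RPE1 5/3 12/3. HNRNPU-AS1 (1.37) and SRSF8 (0.84) were higher in HCT116 5/4 than in HCT116* 8/3 c7. HNRNPA1 (1.01) and HNRNPA1L2 (1.01) were higher in RPE1 5/3 12/3 than in RPE1* 21/3. The transcripts of HNRNPA1 and HNRNPA1L2 share stretches of read length, and how far their rows count the same RNA was not tested.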

How the results depend on the processing

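The number of splicing genes called in HCT116 5/4 went from 2 to 1 with an absolute log2 fold change above 1 (HNRNPU-AS1) and, in an alternative chosen after seeing the data, to 1 (SRSF8) without the rows HNRNPA1L2 and HNRNPU-AS1. In RPE1 5/3 12/3 it went from 4 to 0 with the threshold of 1, and to 3 without those rows. Of 36 alternative counts of called genes 33 equalled the main count or were within 1.5 times of it. These include HCT116* 8/3 c7 and RPE1* 21/3, with 0 called in every setting, and a stricter setting cannot change a count of 0. Genes that differed between HCT116 5/4 and HCT116* 8/3 c7 went from 2 to 1 at a mean of at least 100. At an adjusted p under 0.01 they went from 6 to 3 between HCT116 5/4 and RPE1 5/3 12/3 and from 4 to 2 between HCT116* 8/3 c7 and RPE1 5/3 12/3. The threshold or the filter sets these changes by construction. All 132 alternatives for single named genes kept the call, and 131 kept the direction, the exception being U2AF1 in HCT116 5/4, which went from −0.01 to 0.01 with centred fold changes. Only centring could turn a direction, since undoing the prior and readjusting p keep the sign by construction. The median of the U2AF proteins in RPE1* 21/3 went from −0.20 to 0.16 at a mean of at least 100, which leaves out U2AF1L4. The median of the hnRNP genes in RPE1 5/3 12/3 went from 0.06 to 0.00 without those on gained chromosomes. No paired analysis was possible because the tables hold no values of single libraries, and leaving out each replicate was not run for the same reason. The prior was poorly defined in HCT116 5/4 and RPE1 5/3 12/3.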
